A study of Homo sapiens with 8 samples.

Results

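The loci described here are the gene loci of the short arm of human chromosome 17 (17p) in 2 lung adenocarcinoma cell lines, HCC827 and HCC4006. They were chosen by position, as every row that ends before the centromere of chromosome 17 in build hg19, after 5 rows were left out. This gave 630 rows on 418 loci, of 48405 rows on 31341 loci in the series. The arm itself was chosen with the difference between resistant and DMSO cultures of these libraries already known, so the differences below are a description and were given no test. A locus was used in a line where it was above 0 in all 4 libraries of that line, with 1 row per locus. That left 198 of the 418 loci in HCC827 and 189 in HCC4006. The last of them in HCC827, AC131055.9, ended at base 22026405. Loci beyond the centromere, on the long arm (17q), served for comparison, 470 in HCC827, where the first, NLK, started at base 26369181, and 484 in HCC4006.

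Both lines carry activating mutations of EGFR, the receptor kinase that gefitinib inhibits. The HCC827_DMSO and HCC4006_DMSO groups were passage controls kept with DMSO, the drug's solvent. The HCC827_Gef and HCC4006_Gef groups were populations that had come to grow routinely in 3 µM gefitinib and are called resistant below. Each of the 4 groups had 2 libraries of polyadenylated RNA, called A and B after their columns. Whether both libraries of a group stem from separate cultures is not given in the sources used here, so their spread may be technical. The labels mention no cloning step, and state that fingerprinting found controls and resistant cultures to be genetically equivalent.

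The short arm of chromosome 17 holds MAP2K4, a kinase of the stress pathway that activates JNK. It also carries many housekeeping genes, among them the largest subunit of RNA polymerase II (POLR2A), the splicing factor PRPF8 and the translation factors EIF4A1 and EIF5A. The arm is lost in many tumours. The part near the centromere holds repeated blocks with keratin pseudogenes and small nucleolar RNA genes.

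In HCC827, protein-coding loci on 17p were lower in the resistant libraries along the whole arm. Their median change was -1.12 on the scale of log2(FPKM + 0.5), resistant minus DMSO, which is 46.1% of the DMSO level. The split by coding status was chosen after seeing the data. Over all 198 loci of 17p, coding or not, the median was -0.79, or 57.7% of the DMSO level, beside -0.05 on 17q. FPKM counts fragments relative to transcript length and to the library's mapped total. Of the 135 coding loci, 127 had a negative change, and in 106 both resistant libraries lay below both DMSO libraries. The quartiles were -1.44 and -0.64. On 17q the median of 402 coding loci was -0.08, and 117 of them had both resistant libraries below both DMSO libraries.

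The 63 other 17p loci of HCC827, whose names matched no protein-coding gene, had a median of 0.02, with 30 of 63 negative. Both resistant libraries lay below both DMSO libraries in 30.2% of them. This stands beside 14.7% of such loci on 17q and 24.3% of such loci over all chromosomes. They were unevenly placed along the arm. The bins from 16 to 18, 18 to 20 and 20 to 22 Mb, in the repeat-rich part, held 12, 21 and 15 of them, with medians of -0.11, 0.29 and -0.21. Of the 4 in the bin from 6 to 8 Mb, all 4 were negative, with a median of -0.98, and the 3 in the bin from 4 to 6 Mb had a median of -0.76. The 2 in the bin from 0 to 2 Mb had a median of -0.01. The remaining bins held 1 such locus each. Those from 2 to 4 and 12 to 14 Mb had -1.86 and -0.99. Those from 8 to 10, 10 to 12 and 14 to 16 Mb had 0.19, 0.45 and 0.58. For 43 of the 63 the name, such as KIAA0664, matched no gene, so their type is not known. The others were pseudogenes and noncoding RNA genes. An unmatched row can also stand for a locus that holds a coding gene, as AC016292.3 did in HCC4006 at the locus of RPA1. The coding and other classes are thus not a clean split by gene type.

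**Figure D1:**
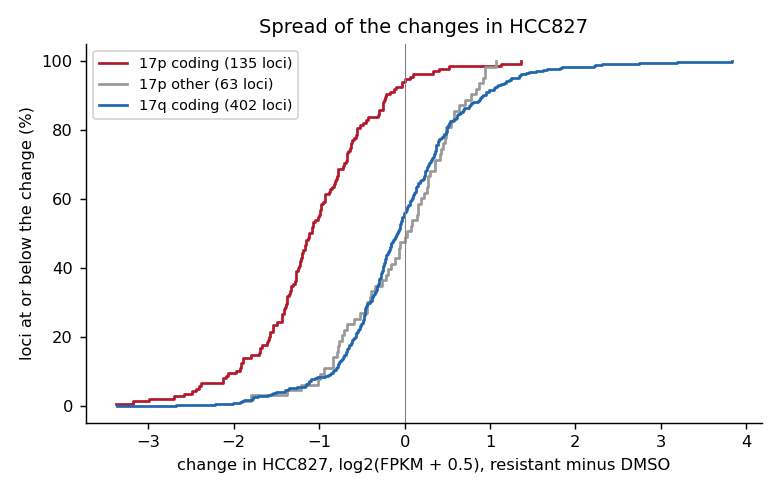
Cumulative share of loci (vertical axis, %) at or below each change (horizontal axis, log2(FPKM + 0.5), resistant minus DMSO) in HCC827. The curve of the 135 coding loci on 17p lies to the left, with its median at -1.12, while the 63 other 17p loci and the 402 coding loci of 17q have medians of 0.02 and -0.08.

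Counted over all 198 loci of HCC827, 125 had both resistant libraries below both DMSO libraries, where 26.9% of all loci did. The reverse order held for 14 loci, against 20.3% of all loci. At least 2-fold lower were 79 loci, against 8.51%. The limma test, adjusted by Benjamini-Hochberg over all rows, called 18 loci lower, against 0.568% of all loci, and 0 higher, against 0.468%; at an unadjusted p under 0.05, 77 loci were lower, against 6.67% of all loci, and 3 higher, against 5.62%. These counts use the contrast by which the arm was chosen and support nothing further.

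In HCC4006 the same arm was near the rest of the genome. The median over the 139 coding loci of 17p was -0.09. Over all 189 loci of 17p it was -0.12, beside -0.07 on 17q and -0.04 over all 13403 loci. Both resistant libraries lay below both DMSO libraries in 54 loci, against 29.1% of all loci, and above them in 29, against 23.1%. At least 2-fold lower were 17 loci, against 10.1%. Limma called 3 loci lower, against 2.13%, and 2 higher, against 1.11%.

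In HCC827 both libraries of each group lay on the same side. For each library the median deviation of loci from their own mean over the line's 4 libraries was taken, and the value for 17q was subtracted from that for 17p. Over coding loci this gave 0.50 and 0.54 for HCC827 DMSO and -0.56 and -0.45 for HCC827 resistant. The groups did not overlap, and each library lay close to the other one of its group. As the mean is over the same 4 libraries, the opposite signs of the groups restate the contrast by which the arm was chosen. Over all loci the values were 0.44 and 0.38 against -0.43 and -0.30, with a pooled SD within groups of 0.070 (n = 2 per group). In HCC4006 the values over all loci were 0.041 and -0.030 in DMSO and -0.0098 and -0.065 in resistant libraries, with a pooled SD of 0.045, and the groups overlapped.

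**Figure D2:**
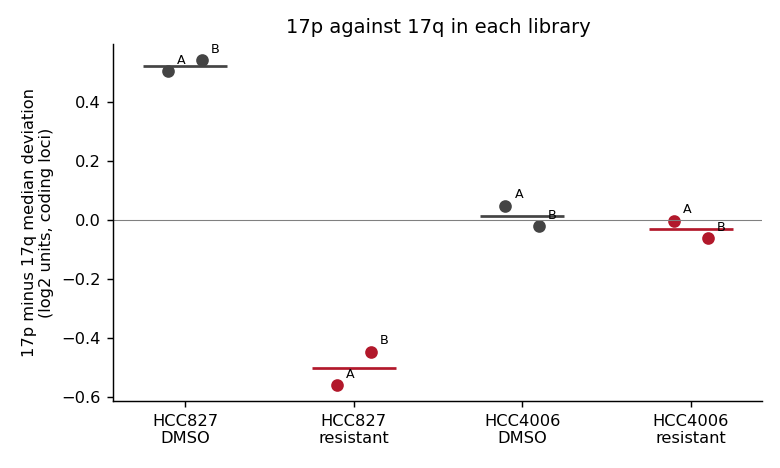
Median deviation of coding loci on 17p minus that on 17q (vertical axis, log2 units) in each of the 8 libraries, A and B, with a line at each group mean. The HCC827 DMSO libraries lie at 0.50 and 0.54 and the resistant libraries at -0.56 and -0.45, while the 4 HCC4006 libraries lie near 0.

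Among 41 chromosome arms with at least 30 loci, 17p had the lowest median of coding loci in HCC827. The next was 7p with -0.57, followed by 3q with -0.24. In HCC4006, 17p ranked 9 from the lowest with -0.09, and 12q was lowest with -0.41.

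**Figure D3:**
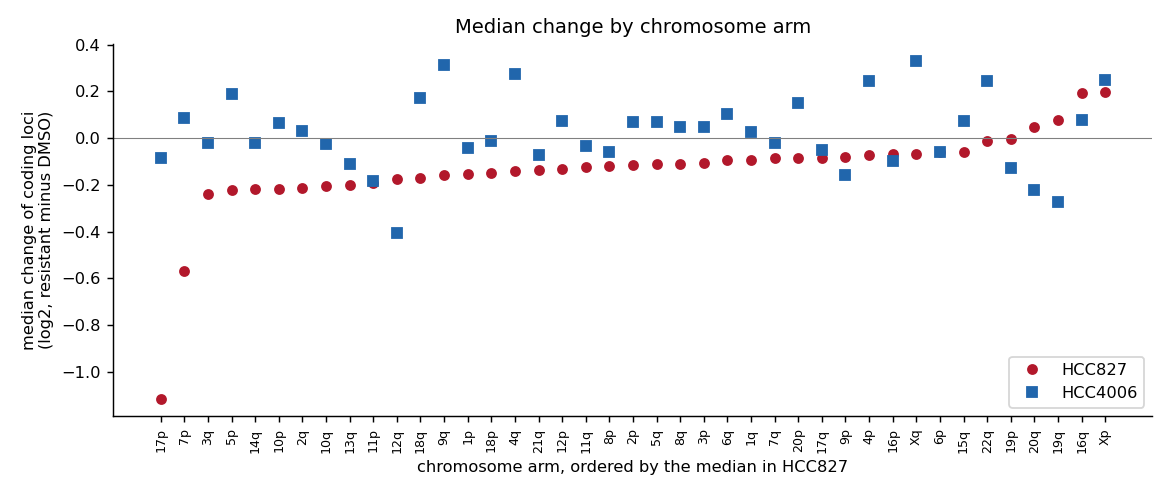
Median change of coding loci (vertical axis, log2, resistant minus DMSO) on each chromosome arm, ordered by the HCC827 value, with circles for HCC827 and squares for HCC4006. The value of 17p in HCC827, -1.12, stands below 7p at -0.57, and in HCC4006 17p is at -0.09.

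Of the markers of lung epithelial cancer cells, EPCAM, KRT8 and EGFR, the last the gefitinib target, were detected in all 8 libraries, as were CDH1 and NKX2-1, while the joined row of KRT18 was below 1 FPKM. The summed FPKM of these 6 markers was 16198 and 16020 in HCC827 DMSO libraries and 7713 and 9244 in resistant libraries. Apart from KRT18, only KRT8 and EGFR had both resistant libraries below both DMSO libraries there, and EPCAM, CDH1 and NKX2-1 had overlapping groups. In HCC4006, where 17p stayed near the rest, the sum was 5845 and 9244 against 2087 and 1866, and CDH1 went from 1518 and 945.2 FPKM to 3.03 and 3.29. The immune markers PTPRC and CD3E and the endothelial marker CDH5 were listed at 0 in all 8 libraries, and the summed fibroblast markers of HCC827, nearly all COL1A1, were 44.1 and 50.9 against 13.4 and 18.1. The part of these differences in the 17p values was not tested. In bulk RNA, fewer cells with a given expression and less RNA per cell cannot be told apart.

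Low values in HCC827 ran from the telomere to the centromere. In bins of 2 Mb, the median of coding loci was negative in each of the 11 bins, between -1.58 and -0.80. The bin from 0 to 2 Mb, at the telomere, had -1.28 over 22 loci, and the bin from 20 to 22 Mb, next to the centromere, had -1.57 over 5 loci. The densest bin, from 6 to 8 Mb, had -0.80 over 32 loci. A running median of 11 coding loci stayed between -1.38, centred on SMG6, and -0.45, centred on CNTROB, and all but 2 of 125 windows lay below -0.5. In HCC4006 the same running median went from -0.62 to 0.30.

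At the border of the range, the last coding locus inside was MAP2K3, a kinase that activates p38, with 1470 and 998.7 FPKM in HCC827 DMSO and 600.7 and 823 in resistant libraries, a change of -0.78. Both resistant libraries were below both DMSO libraries. Beyond it lay C17orf51 with -1.79 and AC131055.9 with 0.83, which was 0.33 without DMSO B. The next loci with values, RP11-173M1.1, RP11-173M1.2, WSB1 and KSR1, start between the 17p range and the 17q set and belong to neither. They had 0.84, 0.58, 0.11 and -0.15, the last pair being coding. Within 17q of HCC827 the bin from 31 to 36 Mb had a median of -0.78 over 23 coding loci, and the bin from 66 to 71 Mb had 1.12 over 6.

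**Figure D4:**
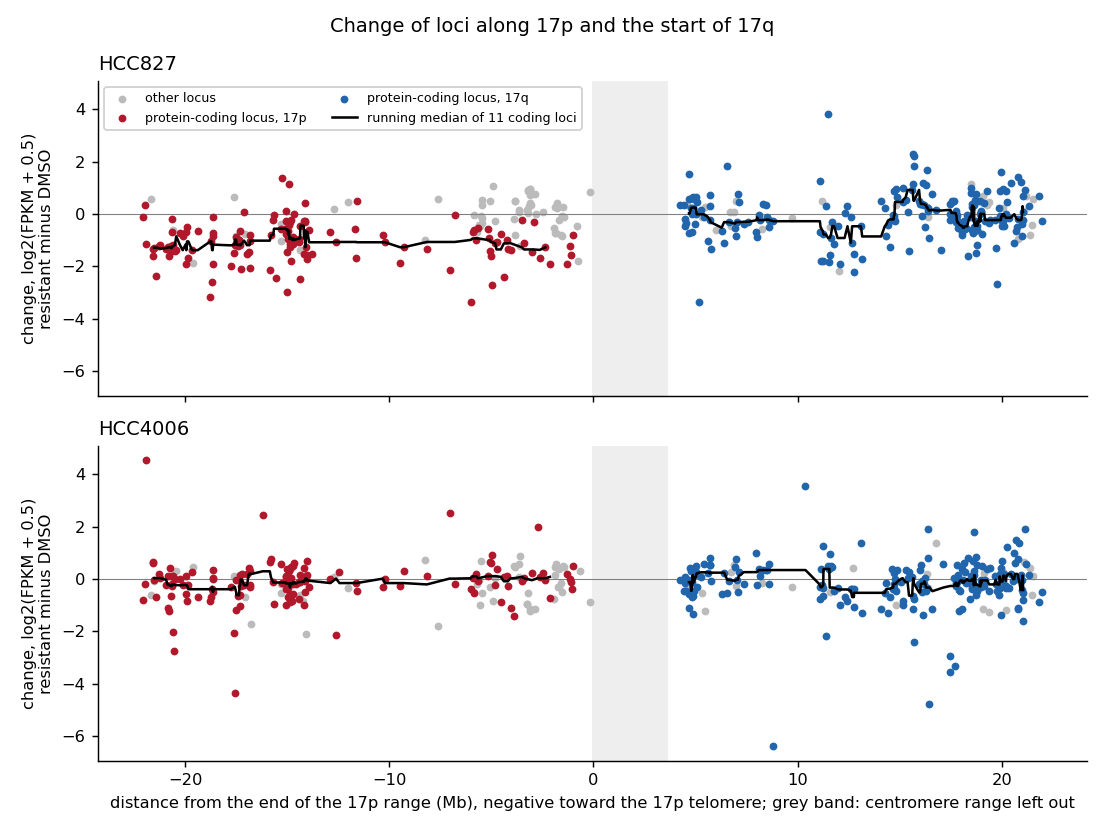
Change of each locus (vertical axis, log2(FPKM + 0.5), resistant minus DMSO) against its distance from the end of the 17p range (horizontal axis, Mb), for HCC827 above and HCC4006 below, with 17p coding loci in red, 17q coding loci in blue, other loci in grey and a running median of 11 coding loci in black. In HCC827 the 17p line stays between -1.38 and -0.45, and in HCC4006 between -0.62 and 0.30.

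The lines also differed in level on this arm. Over the 172 loci of 17p above 0 in all 8 libraries, 127 were coding. In DMSO, these coding loci were higher in HCC827 than in HCC4006 by a median of 0.63, where those of 17q differed by -0.10. In the resistant cultures the median was -0.44 on 17p and -0.14 on 17q. Levels across the lines depend on the scale of each table, so the difference between arms, 0.74 in DMSO and -0.31 in resistant cultures, does not depend on a factor common to a table. The difference of the changes, HCC827 minus HCC4006, had a median of -0.83 over 17p coding loci and -0.01 over 17q coding loci. Limma over all 8 libraries called this difference lower in 23 of the 172 loci, where 1.7% of all loci were called lower, and higher in 4, where 3.43% of all loci were.

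Some rows gave no usable value. NCOR1, a transcriptional corepressor (15468797 to 16119010), was listed at 0 in all 8 libraries. An entry of 0 here can be a failed estimate. The row of PFN1, the actin-binding protein profilin, was at 7553 and 7749 FPKM in HCC827 DMSO and 5632 and 6072 in HCC4006 resistant libraries, and listed at 0 in the other 4. ACADVL, an enzyme of fatty acid oxidation, had 407.5 and 641.9 FPKM in the HCC4006 resistant libraries and 342.3 and 689.2 in those of HCC827, with 0 in every DMSO library. Such rows enter no median. Of 186 rows on 17p that reach 50 FPKM in some library, 4 (2.15%) were listed at 0 in both HCC827 DMSO libraries and 6 (3.23%) in both resistant ones, where 8.42% and 3.74% of such rows were over all chromosomes. In HCC4006 they were 8 (4.30%) and 9 (4.84%), where 7.76% and 3.16% were over all chromosomes.

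Gene lists by role, 174 genes in all, were drawn up with results of these data known. Counts below use each gene's own row, so genes that share a locus each count, and a row that joins genes of different lists counts in each. In HCC827, 105 of 113 such rows above 0 had a negative change, 90 had both resistant libraries below both DMSO libraries, and 3 had them above. Over all loci of HCC827, 56.8% were negative, and 26.9% and 20.3% lay below and above. Among the 17p coding loci of HCC827 they were 94.1%, 78.5% and 1.48%, so the lists together were near the arm as a whole. The same shares stand beside the HCC827 counts of each list below. In HCC4006, 68 of 113 rows were negative, 36 had both resistant libraries below and 17 had them above, where 52.6% of all loci were negative and 29.1% and 23.1% lay below and above.

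Among genes of DNA damage and growth control, all 12 rows above 0 were negative in HCC827, with a median of -1.13. RPA1, a single-stranded DNA binding protein of replication, measured 450.3 and 587 FPKM in DMSO and 144 and 266.1 in resistant libraries, a change of -1.39. TOP3A, a topoisomerase that resolves recombination intermediates, went from 426.6 and 352.4 FPKM to 95.5 and 92.4, a change of -2.04 (SE 0.28). Neither gene had overlapping groups. In HCC4006 both genes had overlapping groups, with changes of 0.08 for RPA1 and -0.06 for TOP3A. PELP1, a coregulator of nuclear receptors, had -1.30 in HCC827 and -0.39 in HCC4006.

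Kinases, adaptors and signalling genes had both resistant libraries below both DMSO libraries in 15 of 15 rows of HCC827, with a median of -1.28. MAP2K4 (11924140 to 12047140) measured 109.7 and 163.1 FPKM in DMSO and 69.1 and 58.4 in resistant libraries, a change of -1.07 (SE 0.34). In HCC4006 it measured 55 and 91.4 against 81.2 and 63.5, a change of 0.02, and the groups overlapped. YWHAE, a 14-3-3 adaptor protein and the coding locus with the highest mean on the arm in both lines, went from 11147 and 8800 FPKM to 3446 and 4539 in HCC827, a change of -1.32, with no overlap. In HCC4006 its change was -0.25, and 0.20 after quantile normalization. CTDNEP1, a phosphatase of the nuclear envelope, had -0.78 in HCC827 and -0.17 in HCC4006.

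For transcription and chromatin, 15 of 16 rows were negative in HCC827, with a median of -0.96. USP22, a deubiquitinase of the SAGA coactivator complex, measured 1535 and 1702 FPKM against 523.8 and 352, a change of -1.91 (SE 0.33), with no overlap. Its HCC4006 values, 870.5 and 995.2 against 1041 and 1067, gave 0.18. SREBF1, a master regulator of lipid synthesis, was lower in both lines, with -0.78 in HCC827 and -0.88 in HCC4006. The chromatin remodeller CHD3 had -0.94 in HCC827 and -0.11 in HCC4006. The exception was the zinc finger gene ZNF594, with 0.06 in HCC827.

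All 14 rows for RNA processing and translation had both resistant libraries below both DMSO libraries in HCC827, and the median was -1.31. EIF5A measured 5676 and 6268 FPKM against 1421 and 3428, a change of -1.43. The resistant libraries differed from each other more than the DMSO libraries did, and without resistant A the change was -0.80. EIF4A1, an RNA helicase of translation initiation, measured 3353 and 4762 against 1348 and 2409, a change of -1.15, and -0.18 in HCC4006. PRPF8 had -1.41 in HCC827 and -0.27 in HCC4006. TSR1, a ribosome assembly factor, had -1.93 and 0.10.

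In the mitochondrial and metabolic list, 15 of 19 rows were negative in HCC827, with a median of -1.29. C1QBP, a protein of the mitochondrial matrix, measured 2321 and 2380 FPKM against 597.3 and 1262, a change of -1.44, with no overlap. In HCC4006 it had 0.43 with overlapping groups. ALDH3A2, a fatty aldehyde dehydrogenase, had -1.67 and GLOD4 had -1.29, beside 0.08 and -0.03 in HCC4006. SHPK, a sugar kinase, measured 194.9 and 208.2 FPKM against 33.1 and 33.4, a change of -2.58 (SE 0.27). The libraries of each group were close together and the groups far apart. Against the trend, SLC16A13, a member of the monocarboxylate transporter family, measured 38.2 and 24.8 FPKM in DMSO and 104.1 and 61.2 in resistant libraries, a change of 1.36. It was the largest positive change on the arm in HCC827 among loci with a mean FPKM of at least 10.

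Cytoskeletal, motor and trafficking genes had 16 of 17 negative rows and a median of -1.24 in HCC827. FLII, an actin-binding protein, was lower in both lines, with -1.37 in HCC827 and -1.09 in HCC4006. PAFAH1B1, a regulator of the motor protein dynein, measured 465.1 and 548.3 FPKM against 210.8 and 177.5 in HCC827, a change of -1.38. It had 0.27 in HCC4006, where both resistant libraries were above both DMSO libraries. GABARAP, an autophagy protein, had 0.10 in HCC827, with 575.2 and 758.3 FPKM against 678 and 742.1, and its groups overlapped.

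The 7 ubiquitin and protein turnover rows were all negative in HCC827, with a median of -1.08. COPS3, a subunit of the COP9 signalosome, measured 1617 and 3049 FPKM against 550.7 and 979.1, a change of -1.60, and had 0.61 in HCC4006. PSMB6, a catalytic subunit of the proteasome, had -1.17 in HCC827, but its resistant libraries lay far apart, at 421 and 1382 FPKM. Secreted, surface and immune genes had medians of -1.05 in HCC827 and -0.68 in HCC4006, the lowest of the 8 lists in HCC4006. The joined row of the cytokine genes TNFSF12 and TNFSF13 had -0.998 in HCC827 and -0.84 in HCC4006. CXCL16, a membrane-bound chemokine, measured 296.4 and 211.2 FPKM in HCC4006 DMSO and 13.7 and 10.3 in resistant libraries, a change of -4.34 (SE 0.30). In HCC827 it had -1.20. CD68, a lysosomal membrane protein used as a macrophage marker, had 0.22 in HCC827, less than its SE of 0.28. It measured 334.7 and 264.4 FPKM in DMSO and 338.8 and 355.8 in resistant libraries. Both resistant libraries were above both DMSO libraries, but resistant A was close to DMSO A.

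**Figure D5:**
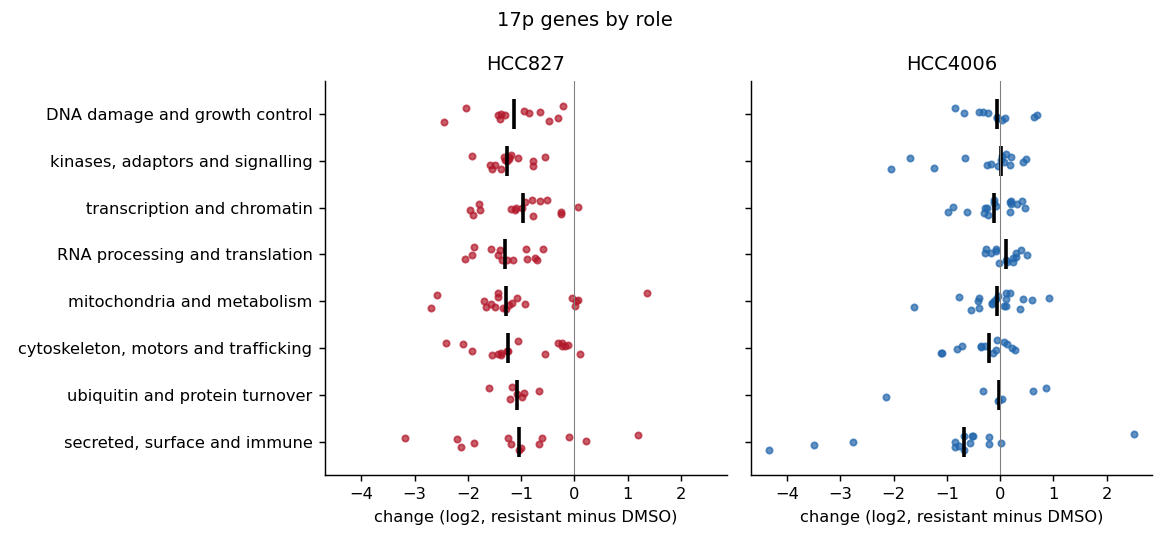
Change of each gene row above 0 (horizontal axis, log2, resistant minus DMSO) in 8 role lists of 17p genes, HCC827 left and HCC4006 right, with a black bar at each list's median; points are spread vertically only for legibility. The HCC827 medians run from -1.31 to -0.96, and in HCC4006 the lowest is -0.68, for secreted, surface and immune genes.

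One shared locus shows how genes side by side compared. The locus from 18012019 to 18266856 joins several genes. In HCC827, TOP3A had -2.04, the RNA demethylase ALKBH5 had -1.76, the serine hydroxymethyltransferase SHMT1 had -1.48, LLGL1 had -1.43 and FLII had -1.37, while SMCR7, a mitochondrial fission adaptor, had 0.06.

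The largest negative change in HCC827 among loci with a mean FPKM of at least 10 was that of CENPV (16120508 to 16256813), named for its role at centromeres. It measured 199.9 and 318.8 FPKM in DMSO and 17.4 and 32.7 in resistant libraries, a change of -3.37 (SE 0.46). YBX2, a germ cell RNA-binding protein, had -2.99, and NT5M, a mitochondrial nucleotidase, had -2.70. CNTROB, a centriole protein, measured 235.3 and 157.2 against 29.8 and 38.3, a change of -2.49. None of these 4 loci had overlapping groups in HCC827. In HCC4006 CENPV had 1.02, NT5M 0.91 and CNTROB 0.15, and YBX2 was listed at 0.

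In HCC4006, with 1 row per locus and a mean FPKM of at least 10, the largest negative changes after CXCL16 were SERPINF2 with -2.76 (-1.79 without DMSO A), USP43 with -2.14, ARRB2 with -2.05 and TLCD2 with -2.04. SPNS2, an exporter of sphingosine-1-phosphate whose locus is represented by another row, had -3.50. TLCD2 measured 143.6 and 14.7 FPKM in DMSO, and without DMSO A its change was -0.41. On the positive side, FAM101B measured 2.61 and 11.4 FPKM in DMSO and 129.9 and 151.7 in resistant libraries, a change of 4.53 (SE 0.74). PMP22, a myelin membrane protein also made outside nerve, measured 14.7 and 51.2 against 148 and 173.2, a change of 2.52, and 1.63 without DMSO A. In HCC827 PMP22 went the other way, from 173.7 and 158.4 to 33.8 and 41.7, a change of -2.13 (SE 0.29). WSCD1 had 2.43 in HCC4006 and PITPNM3 had 0.77. The joined row of TRIM16L measured 924.3 and 282.3 FPKM against 963.4 and 895.5, a change of 0.86 with overlapping groups, and 0.0070 without DMSO B.

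Loci with no coding name held some of the highest values on the arm. AC073621.1 (17286690 to 17287326) measured 5743 and 4297 FPKM in HCC827 DMSO and 9773 and 11111 in resistant libraries, a change of 1.07. In HCC4006 it measured 8711 and 5787 against 4080 and 3920, a change of -0.83. The groups did not overlap in either line, and the directions were opposite. AC004448.3 had 0.78 in HCC827. AC004448.1, a row of the same locus, had -1.13 in HCC4006. In HCC827 it measured 2448 and 216.3 FPKM in DMSO and 2280 and 354.8 in resistant libraries. The libraries within each group lay far apart and the groups overlapped, so its change of 0.31 there is uncertain. The row joining NCRNA00188, a host of small nucleolar RNAs, had -0.05 with overlapping groups. Among coding loci with high values, the joined row of UBB, a polyubiquitin gene, had -0.67 with overlapping groups, and -0.032 without resistant A. C17orf61, also coding, measured 181 and 294.4 FPKM against 322.6 and 792.9, a change of 1.13, and 0.48 without resistant B.

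Keratin pseudogenes near the centromere are 17p loci with similar copies. KRT16 lies on 17q (39766029 to 39769005), and KRT16P1, KRT16P2 and KRT16P3 lie on 17p. Over 1415 aligned bases KRT16P1 was 94.6% identical to KRT16 in GENCODE 29 transcripts (GRCh38). A stretch of 90 bases of the KRT16 coding part, bases 1005 to 1094 from its start, is shown to make the likeness visible, 5′ to 3′, with capitals where a copy differs from KRT16.
KRT16: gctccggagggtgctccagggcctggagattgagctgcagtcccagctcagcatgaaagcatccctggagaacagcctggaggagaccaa
KRT16P1: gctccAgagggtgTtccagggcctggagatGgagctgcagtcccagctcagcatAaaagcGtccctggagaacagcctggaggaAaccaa
KRT16P2: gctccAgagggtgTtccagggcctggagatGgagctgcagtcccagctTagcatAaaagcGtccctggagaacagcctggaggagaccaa
KRT16P3: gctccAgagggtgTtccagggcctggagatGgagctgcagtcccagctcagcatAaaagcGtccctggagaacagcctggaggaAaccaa

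Each copy differs from KRT16 at 6 of these 90 bases, the most that the choice of stretch allowed. KRT16P1 and KRT16P3 are the same over the stretch. In HCC827, KRT16P1 measured 566.8 and 217.7 FPKM in DMSO and 326.3 and 740.2 in resistant libraries. KRT16P3 measured 229.9 and 75.2 against 118.6 and 264.4, and KRT16 itself 33 and 12 against 16.7 and 44.7. All had resistant B highest and DMSO B lowest, and their groups overlapped. How the authors' counting divided reads among similar copies was not tested, so these values are uncertain.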

How the data were processed

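The authors deposited FPKM for each row in a table per line, with 8 library columns in all and 0 further per-sample columns. Build hg19 and the tools Cuffdiff, Cufflinks 1.3.0 and TopHat 1.4.1 are those of the submitters' processing notes. The annotation is not given in the sources used here, and without counts the depth is unknown. The median row above 0 was 53.6 to 59.0 FPKM. The library kit does not mark strand, per the labels' protocols, so overlapping and antisense genes cannot be told apart.

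Changes are differences of mean log2(FPKM + 0.5), which understates changes of low genes. For each locus the row with the highest mean was taken. Coding status came from RefSeq symbols of GRCh38.p14, matched by name on the same chromosome. Arms were split at rounded hg19 centromere positions. Limma 3.58.1 (R 4.3.3, lmFit, eBayes with trend) was fitted per line over all rows whose mean FPKM was 0.5 or more. Benjamini-Hochberg adjustment and a threshold of 0.05 were used. The fit was also run on simulated data with the same noise for all rows of a line, and that outcome is not reported here. KRT16 copies were aligned with Biopython 1.88. Members and lists were chosen with earlier results of these data known. Named loci were MAP2K4 and NCOR1, the 5 largest changes each way and the 5 highest means per line with a mean FPKM of at least 10, border loci and, per list, members with the highest means; ZNF594, SPNS2, loci with 0 entries, the shared locus and the KRT16 copies were chosen after their values were seen. Some items are not reported here. The alternatives tried were other pseudocounts, filters, row choices, scalings, a replicate block and leaving out each library.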

Additional observations from a re-analysis of the deposited data

Results flagged for a closer look

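For 9 named loci, limma over all 8 libraries, adjusted over all rows, called the difference of the changes, HCC827 minus HCC4006. The contrast is the one the arm was chosen by, so these are descriptions. Over all loci, 1.7% were called lower and 3.43% higher. Many of the named loci were chosen for large changes within a line, which favours such calls. On the log2 scale the difference was 3.14 for CXCL16, -5.66 for FAM101B, -4.65 for PMP22, 1.90 for AC073621.1, -4.39 for CENPV, -3.61 for NT5M, -2.19 for SHPK, -2.64 for CNTROB and 1.46 for AC004448.3. The lines had opposite directions, with no overlap between groups in either, for 6 of the 9: FAM101B, PMP22, AC073621.1, CENPV, NT5M and AC004448.3. PITPNM3 also had opposite directions without overlap but was not called.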

How the results depend on the processing

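The 17p median minus the 17q median in HCC827, -0.74, kept its direction under each alternative run. It was -0.63 with a pseudocount of 5, -0.88 and -1.04 for loci with a mean FPKM of at least 10 and 50, -1.03 for coding loci and -0.081 for the others, the last pair chosen after seeing the data. Leaving out 1 library gave -0.88 to -0.69. In HCC4006 the value of -0.055 turned to 0.045 at a mean of at least 50 and to 0.016 without DMSO A, was -0.0044 for loci with no coding name, and ran from -0.074 to 0.016 when 1 library was left out. The median difference between the lines, -0.64, was -0.65 and -0.58 with pseudocounts of 0 and 5.

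Limma calls depended on the settings. The 18 calls in HCC827 became 0 when only rows above 0 entered, where calls over all chromosomes went from 1314 to 19 rows. With all 8 libraries they became 36, where 1766 rows were called over all chromosomes. Without any 1 library there were 0 to 0. Without DMSO A or DMSO B there were also 0 calls over all chromosomes, and without resistant A or resistant B there were 1446 and 1520. The 5 calls in HCC4006 became 3 with no filter, where most residual variances were 0 and limma warned of it, 1 when only rows above 0 entered, 8 with all 8 libraries, and 0 to 15 when 1 library was left out, with 15 without DMSO B and 0 without either resistant library. With a replicate block by column letter the counts were 20 in HCC827 and 3 in HCC4006. Over all chromosomes this block gave 1485 and 1400 rows. With the crossed pairing, chosen after seeing the data, they were 12 and 2, with 1233 and 1344 over all chromosomes. Whether libraries of the same letter were paired is not known. The correlation of same-letter deviations was 0.229 in HCC827 and -0.100 in HCC4006. Of 217 alternative values for 31 named loci and lines, 210 kept their sign; YWHAE in HCC4006 turned from -0.25 to 0.20 under quantile normalization, and the other turns were of values near 0. The causes were not tested. With 2 libraries a group and no counts, precision for low loci is unknown.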
